A study of Mus musculus with 3 samples.

Results

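The 35 genes described here are a set of cell cycle and proliferation genes, chosen by symbol from the 31253 genes counted in 3 mouse liver libraries, and all 35 were found. They are 11 genes of DNA synthesis in S phase (Pcna, Mcm2, Mcm3, Mcm4, Mcm5, Mcm6, Mcm7, Tyms, Rrm1, Rrm2, Gins2), 18 genes of mitosis (Mki67, Top2a, Birc5, Cdk1, Ccnb1, Ccnb2, Ccna2, Ube2c, Cenpf, Cenpe, Tpx2, Aurka, Aurkb, Bub1, Plk1, Cdc20, Nusap1, Kif11), 3 cyclins of the G1 phase (Ccnd1, Ccne1, Ccne2) and 3 genes that resting cells also transcribe (Stmn1, Hmgb2, Tubb4b). The libraries come from droplet single-cell RNA sequencing, with 1 library per group. FL_control is labelled as a GsdmdFL/FL liver that was not irradiated, FL_IR as a GsdmdFL/FL liver that was, and dHep_IR as an irradiated Gsdmd∆Hep liver. Irradiation was with 30 Gy, and the tissue was taken 7 days afterwards. Gsdmd encodes gasdermin D, a protein that forms pores in the cell membrane. The driver of the deletion, the deleted exons, the body region exposed, the age of the animals and whether a library held 1 animal or a pool are not given in the sources used here. An unirradiated Gsdmd∆Hep liver was not analysed here, so that genotype was seen only after irradiation. Values of the 3 libraries are given in the order FL_control, FL_IR and dHep_IR throughout.

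As a check of the labels, Gsdmd stood at 36.4, 7.21 and 36.7 CPM over all cells. CPM are UMIs scaled to a total of 1000000 per class or library, and a UMI is 1 counted RNA molecule. Gsdmd was lowest in the library labelled as floxed and irradiated, not in the library labelled as the deletion. The same held in endothelial-like (26.2, 8.92 and 24.6 CPM), neutrophil-like (81.3, 6.3 and 37.15) and monocyte-like cells (78.2, 6.42 and 52.6). These are not hepatocytes, so their values cannot check a deletion in hepatocytes. Hepatocyte-like cells held only 22, 2 and 1 UMIs of Gsdmd, so the labels were neither borne out nor contradicted. The 3' tag may lie outside the deleted part and would then check nothing. Directions below are therefore directions between the libraries labelled FL_control, FL_IR and dHep_IR.

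Dividing cells enter the cycle in G1 under D-type and E-type cyclins, copy their DNA in S phase with the MCM helicase, and separate the copies in mitosis under Cdk1 with A-type and B-type cyclins. Mitotic transcripts are low in resting cells and accumulate before division, whereas S-phase transcripts such as Pcna are also made at lower levels outside the cycle. Most cells of the adult liver rest, and irradiated cells are known to induce Cdkn1a, the kinase inhibitor p21.

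Promoters of 5 genes that the results turn on are shown because S-phase and mitotic genes are known for different promoter elements. Each is the 250 bases before the RefSeq start on GRCm38.p6, 5′ to 3′ on the gene's strand. Capitals mark the CCAAT box, the letters TTTGAA (the core of the cell cycle homology region) and the E2F-type letters TTTCGCGC, TTTGGCGC, TTTCCCGC and TTTGCCGC, on either strand. Matches can overlap, as in Mcm5. The mitotic genes are Cdk1 (chr10:69352913-69353162, minus strand), Top2a (chr11:99024190-99024439, minus strand), Ccnb2 (chr9:70421555-70421804, minus strand) and Ube2c (chr2:164769679-164769928, plus strand), and the S-phase gene is Mcm5 (chr8:75109259-75109508, plus strand).
Cdk1: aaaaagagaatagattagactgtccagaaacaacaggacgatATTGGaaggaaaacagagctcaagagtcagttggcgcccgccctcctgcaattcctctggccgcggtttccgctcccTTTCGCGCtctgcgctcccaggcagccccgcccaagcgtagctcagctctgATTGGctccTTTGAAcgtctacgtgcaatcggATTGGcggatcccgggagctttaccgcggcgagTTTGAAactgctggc
Top2a: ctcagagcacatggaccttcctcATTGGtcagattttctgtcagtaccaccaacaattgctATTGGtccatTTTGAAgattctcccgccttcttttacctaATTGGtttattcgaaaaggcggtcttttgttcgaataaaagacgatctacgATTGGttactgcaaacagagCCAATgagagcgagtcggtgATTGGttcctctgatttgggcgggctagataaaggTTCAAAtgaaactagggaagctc
Ccnb2: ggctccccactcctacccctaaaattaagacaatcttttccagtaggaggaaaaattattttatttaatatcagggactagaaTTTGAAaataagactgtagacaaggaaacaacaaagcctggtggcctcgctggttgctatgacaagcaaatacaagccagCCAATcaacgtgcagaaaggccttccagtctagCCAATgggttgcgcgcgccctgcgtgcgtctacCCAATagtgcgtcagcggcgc
Ube2c: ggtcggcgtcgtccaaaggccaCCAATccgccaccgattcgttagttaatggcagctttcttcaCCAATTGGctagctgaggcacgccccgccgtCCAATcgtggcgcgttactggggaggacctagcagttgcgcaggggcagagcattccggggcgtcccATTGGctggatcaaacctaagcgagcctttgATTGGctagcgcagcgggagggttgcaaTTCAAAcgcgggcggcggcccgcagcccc
Mcm5: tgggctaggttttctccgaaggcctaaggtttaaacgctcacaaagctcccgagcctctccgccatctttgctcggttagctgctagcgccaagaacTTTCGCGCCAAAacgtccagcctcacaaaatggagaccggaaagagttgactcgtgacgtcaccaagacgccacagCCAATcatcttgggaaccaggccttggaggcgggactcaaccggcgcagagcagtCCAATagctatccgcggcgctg

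The RefSeq table held a promoter for 27 of the 35 genes. CCAAT letters were in 13 of 15 mitotic promoters (86.7%) and 8 of 9 S-phase promoters (88.9%), against 34.5% of all 27025 promoters of the same length. TTTGAA letters were in 7 of 15 mitotic (46.7%) and 1 of 9 S-phase promoters (11.1%), against 16.3% of all. E2F-type letters were in 1 of 15 mitotic promoters (6.67%), that of Cdk1, and in 3 of 9 S-phase promoters (33.3%), against 1.91% of all. A match describes the letters in this window and shows no binding.

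After removal of poor barcodes and doublets, 6451, 6539 and 7242 cells were kept, with a median of 5836, 7409 and 7949.5 UMIs per cell, and 7 to 41 kept barcodes were shared by a pair of libraries. Cells were clustered without the cell cycle genes, and clusters were named from markers. Endothelial-like, Kupffer-like, monocyte-like and neutrophil-like cells sat in different clusters before and after irradiation: endothelial-like cells in clusters 0 and 1 against 5, 6 and 7, Kupffer-like in 14 against 3, monocyte-like in 12 against 20, and neutrophil-like in 2 against 8, 19 and 21. T-like cells (cluster 10), NK or ILC1-like cells (cluster 9) and a cluster led by MHC class II genes that the markers did not name (cluster 17) were each 1 cluster in all libraries. With 1 library per group there is no replicate check and no test. Intervals are 95% intervals for counting error, they do not cover variation between animals, and they are too narrow where a few cells hold most UMIs. FL_IR serves in the comparison with FL_control and in that with dHep_IR, so the comparisons are not independent. TMM factors, which centre each ratio on the bulk of the genes, would add -0.04 (T-like cells) to 0.82 (neutrophil-like cells, dHep_IR against FL_control) to the log2 ratios, with 0.72 for neutrophil-like cells of FL_IR against FL_control.

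Summed over all kept cells, the 18 mitotic genes stood at 164, 21.4 and 89.9 CPM. In endothelial-like cells their sum was 85.3, 13.7 and 13.8 CPM and in Kupffer-like cells, the resident macrophages, 264, 17.2 and 63.8. Both resident classes were lower in each irradiated library. Monocyte-like cells gave 71.8, 24.4 and 122 CPM, T-like cells 514, 367 and 701 and neutrophil-like cells 6.25, 6.46 and 13.4. These 3 classes had their highest value in dHep_IR, but not under every setting: the log2 ratio of dHep_IR against FL_control turned to -1.03 in monocyte-like cells with doublets kept, and in neutrophil-like cells to -3.18 with a stricter filter on cells and -3.12 with finer clusters. The S-phase sum differed less in the resident classes, with 324, 255 and 253 CPM in endothelial-like and 271, 197 and 206 in Kupffer-like cells.

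**Figure D1:**
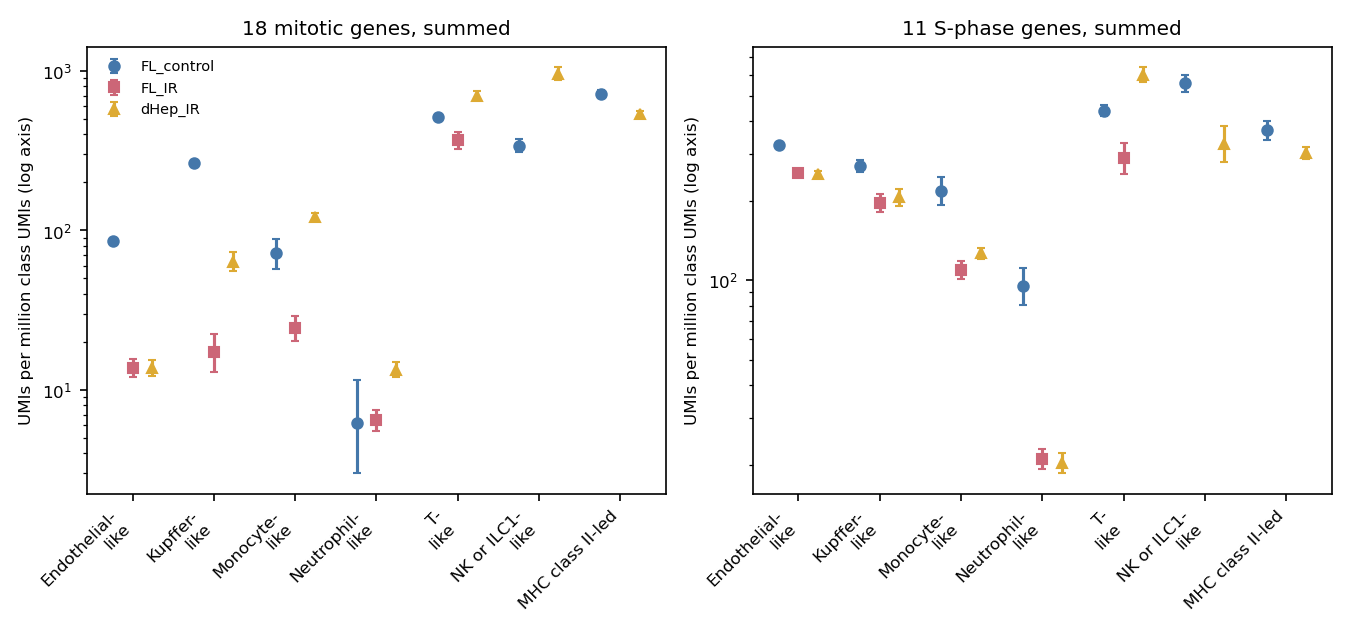
CPM of the class total (log axis) of the 18 mitotic genes (left) and the 11 S-phase genes (right), summed in each cell class with at least 50 cells in a library. Circles are FL_control, squares FL_IR and triangles dHep_IR, each 1 library, with 95% Poisson intervals. In endothelial-like cells the mitotic sums were 85.3, 13.7 and 13.8, while the S-phase sums were 324, 255 and 253.

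In endothelial-like cells (2533, 3009 and 3458 cells) mitotic genes were lower in FL_IR than in FL_control as a group. The mitotic sum was 6.21-fold lower (5.43 to 7.12). A gene was compared where both libraries together held at least 20 UMIs, and called where the ratio was at least 2-fold with an interval that excludes 1. A gene with few UMIs in 1 library could thus be compared only where the other library held more, so these counts leave out genes low in both. By this rule 15 of 17 mitotic genes were lower and 0 higher, with a median log2 ratio of -2.55 against -0.10 for all genes compared. Of all members, 20 of 34 were lower, beside a background of 16.7% of all genes compared, and 0 higher, beside 8.96%.

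Ube2c, the ubiquitin-conjugating enzyme that serves the anaphase-promoting complex, had 163, 3 and 9 UMIs in endothelial-like cells, and Cenpf, a kinetochore protein, 160, 2 and 8. Both irradiated libraries were far below the control. The FL_IR values rest on so few UMIs that Ube2c was 44.9-fold lower (15.1 to 219.8) with a wide interval. Mki67, the proliferation antigen of the chromosome surface, stood at 8.37, 0.831 and 1.24 CPM and was 10.1-fold lower (5.95 to 18.4). Top2a, which untangles replicated DNA, stood at 10.8, 0.887 and 0.642 CPM. Cdk1, the kinase that drives entry into mitosis, had 312, 56 and 77 UMIs, the most of any mitotic gene in FL_IR, and was 4.6-fold lower (3.45 to 6.23). Bub1, a spindle checkpoint kinase, had 24, 0 and 1 UMIs and was at least 6.61-fold lower in FL_IR, against a floor of 3 UMIs. The kinases Aurka (39, 19 and 20 UMIs) and Plk1 (32, 15 and 12 UMIs) were the mitotic genes compared that were not called. Cenpf and the remaining called genes (Birc5, Ccnb2, Ccna2, Cenpe, Tpx2, Aurkb, Cdc20, Nusap1, Kif11) were 2.1-fold to 66.1-fold lower. Ccnb1 had too few UMIs to compare.

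Few cells carried the signal in FL_control. There 81.1% of the mitotic UMIs lay in the 51 cells with at least 2 different mitotic genes and 53.9% in 5 cells, while in FL_IR 10.5% lay in 10 such cells. The log2 ratio of the mitotic sum, -2.63, was -1.63 without the 5 cells with the most mitotic UMIs of each library and -1.94 as a mean over cells. Other measures of the class moved with it: the 9 endothelial markers summed to 16932, 9308.5 and 10528 CPM, the 11 neutrophil markers to 505, 1494 and 1297 and the 5 erythroid markers to 615, 6.87 and 8.94. The mitochondrial share was 5.41%, 2.52% and 3.4% and the median depth 8452, 5651 and 5552 UMIs per cell. Their part in the mitotic values was not tested.

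Among the S-phase genes of endothelial-like cells, 2 of 11 were lower, a share near the background of 16.7%. Rrm2, the subunit of ribonucleotide reductase made in S phase, had 48, 9 and 12 UMIs, and the helicase subunit Mcm2 stood at 21.1, 9.75 and 7.17 CPM. Partners in the same complexes differed from them. Rrm1, the other reductase subunit, stood at 32.1, 43.7 and 39.9 CPM and was 1.36-fold higher (1.23 to 1.51), and Mcm7 stood at 11, 12.4 and 12.1. Pcna, the sliding clamp of DNA polymerase, stood at 113, 94.3 and 96.9 CPM. In FL_control the 51 cells with at least 2 mitotic genes held 835 S-phase UMIs and the far more numerous other cells 6238. Scaled to their totals, S-phase genes stood at 1075.6 CPM in the 51 cells and 296 in the other cells. The ratio was 3.63 (3.38 to 3.91), so the S-phase level was higher in the 51 cells, although most S-phase UMIs lay outside them.

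Between the irradiated libraries the endothelial-like cells were close. The mitotic sums had a ratio of 1.0 (0.843 to 1.2), and the S-phase sums a ratio of 0.990 (0.951 to 1.03). Of 27 members compared, 0 were higher (background 1.29%) and 0 lower (2.1%). These intervals bound the difference between these libraries and do not show that the genotypes act alike.

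**Figure D2:**
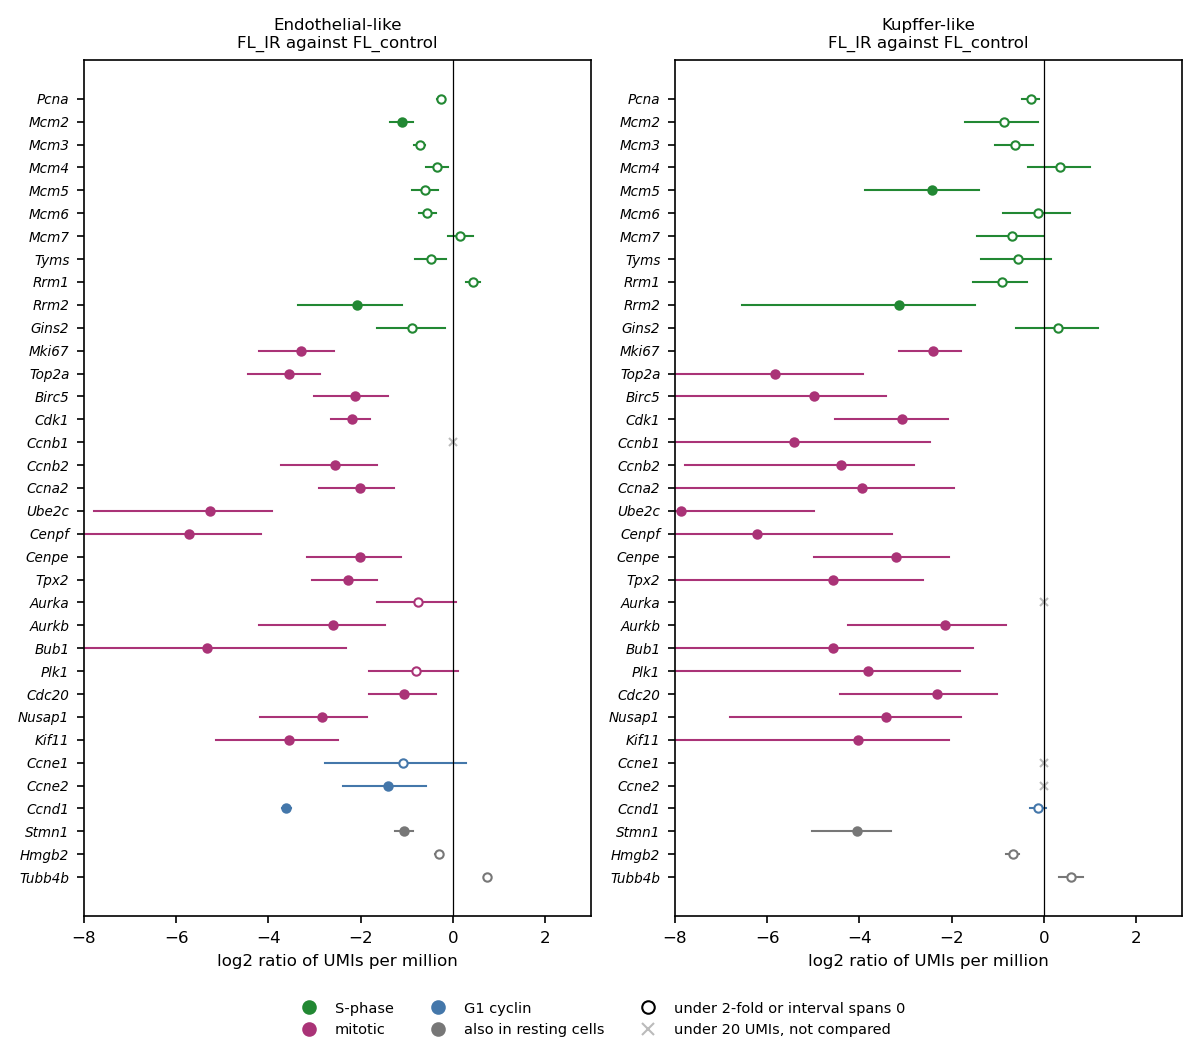
Log2 ratio of CPM between FL_IR and FL_control for each of the 35 genes in endothelial-like (left) and Kupffer-like cells (right), with 95% intervals. Filled points are called, open points are under 2-fold or have an interval that spans 0, crosses have under 20 UMIs, and points of genes with 0 UMIs in a library depend on the added count of 0.5. Called mitotic genes number 15 of 17 in endothelial-like and 17 of 17 in Kupffer-like cells, all lower.

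Kupffer-like cells (564, 450 and 360 cells) had the widest gap in mitotic genes between FL_control and FL_IR of the 5 classes compared. The mitotic sum was 15.4-fold lower (11.7 to 20.6) in FL_IR, and 17 of 17 mitotic genes compared were lower. Of all members 20 of 32 were lower (background 8.66%) and 0 higher (6.12%). Ube2c had 221, 0 and 19 UMIs and was at least 39.1-fold lower in FL_IR. Top2a had 161, 1 and 27 UMIs, and Birc5, the survivin subunit of the chromosomal passenger complex, 148, 2 and 14. Mki67 kept the most UMIs of the mitotic genes in FL_IR, with 223, 22 and 69. For each of these 4 genes dHep_IR lay between the other libraries. Ccnb1, Cenpf and Bub1 also had 0 UMIs in FL_IR (40, 0 and 5, 70, 0 and 4 and 22, 0 and 2 UMIs), and the other called mitotic genes were 4.91-fold to 35.5-fold lower. Of the S-phase genes, Mcm5 (75, 7 and 17 UMIs) and Rrm2 (41, 2 and 7 UMIs) were lower in FL_IR, and Pcna stood at 142, 117 and 113 CPM.

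The mitotic sum of Kupffer-like cells was 3.71-fold higher (2.74 to 5.12) in dHep_IR than in FL_IR. Only 2 mitotic genes had enough UMIs to compare. Over all members 3 of 16 were higher (background 2.83%) and 0 lower (5.9%). The higher ones were Mki67, Top2a and Stmn1, a protein that destabilizes microtubules, with 421, 13 and 64 UMIs. Cells with at least 2 mitotic genes numbered 46, 1 and 12. In dHep_IR 64.5% of the 214 mitotic UMIs came from 5 cells, and the log2 ratio was 0.82 without the 5 richest cells of each library, in place of 1.88. The 11 neutrophil markers summed to 129.9, 2604 and 1094.5 CPM and the 9 Kupffer markers to 20902, 23757 and 23678 in this class. The 12 cells of dHep_IR with at least 2 mitotic genes held 152 of its 214 mitotic UMIs. In them the 9 T markers summed to 197.5 CPM against 9.27 in the rest. Neutrophil markers stood at 951 against 1105 and Kupffer markers at 24246 against 23638. The part of neutrophil or T cell RNA in these ratios was not tested.

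Monocyte-like cells (133, 465 and 892 cells) held 163 of the 293 cells of dHep_IR with at least 2 mitotic genes, against 19 of 48 in FL_IR and 3 of 188 in FL_control. Between the irradiated libraries the mitotic sum was 5.0-fold higher (4.19 to 6.01) in dHep_IR. Of all members 18 of 30 were higher (background 4.66%) and 1 lower, a share near the background of 3.2%. The higher ones were 11 of 14 mitotic genes, 6 of 11 S-phase genes and Stmn1. With doublets kept, the log2 ratio of the mitotic sum was 1.63 in place of 2.32.

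Ccnb2, a B-type cyclin, had 0, 3 and 315 UMIs in monocyte-like cells and was 42.4-fold higher (14.4 to 207) in dHep_IR than in FL_IR. It was found in 128 of 892 cells of dHep_IR (14.4%), 3 of 465 of FL_IR (0.645%) and, at a similar depth, in 1.89% of neutrophil-like cells of dHep_IR (medians of 11566 and 14980.5 UMIs in monocyte-like cells of FL_IR and dHep_IR, and 13276.5 in those neutrophil-like cells). Birc5 had 8, 6 and 217 UMIs, Ube2c 12, 27 and 411 and Mki67 9, 30 and 242. All 4 genes had their highest level in dHep_IR (6.45, 1.1 and 16.1 CPM for Birc5, 9.67, 4.95 and 30.4 for Ube2c and 7.26, 5.5 and 17.9 for Mki67). Aurkb, the kinase of the passenger complex, went the other way with 8.06, 2.94 and 1.41 CPM (10, 16 and 19 UMIs), 2.09-fold lower (1.0 to 4.28) in dHep_IR than in FL_IR. With doublets kept its log2 ratio was 0.34. Of the S-phase genes, Mcm5 had 17, 13 and 88 UMIs and Rrm2 5, 1 and 32, and Mcm6, Mcm7, Tyms and Rrm1 were also called. Pcna did not follow them, with 120.1, 75.8 and 67.9 CPM, and it gave most of the S-phase sum of 218, 109.5 and 127. The log2 ratio of that sum was 0.80 without the S-phase gene with the most UMIs, in place of 0.21.

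Ccnb2, Ube2c and Birc5 together gave 943 of 1648 mitotic UMIs of these cells in dHep_IR, 57.2% (54.8% to 59.6%). The same genes gave 31.3% (28.6% to 34.2%) in T-like cells of that library, 30.4% (28.5% to 32.3%) in the MHC class II-led cluster and 27.1% (19.7% to 35.5%) in monocyte-like cells of FL_IR. Cdk1, Kif11 (a spindle motor) and Nusap1 (a spindle-associated protein) had 19, 16 and 7 UMIs, where T-like cells of dHep_IR, with 1069 mitotic UMIs in all, had 55, 38 and 37. By these genes the make-up of the mitotic sum differed. They were not grouped beforehand and stand out by their counts in these same cells. Part of the contrast therefore follows from the choice, and the shares are a description. S-phase UMIs stood at 166 CPM in the 163 cells with at least 2 mitotic genes and 116 in the rest. The ratio was 1.43 (1.29 to 1.6), against 4.82 (4.19 to 5.55) in T-like cells of dHep_IR. Depth differed between these classes, with medians of 14980.5 and 6035 UMIs. The shares of cells with at least 2 mitotic genes were 18.3% and 14.6%, and 1.46% and 5.42% with each cell thinned to 1000 UMIs. The part of depth in the ratios was not tested. In monocyte-like cells of dHep_IR the 5 richest cells held 20.4% of the mitotic UMIs.

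**Figure D3:**
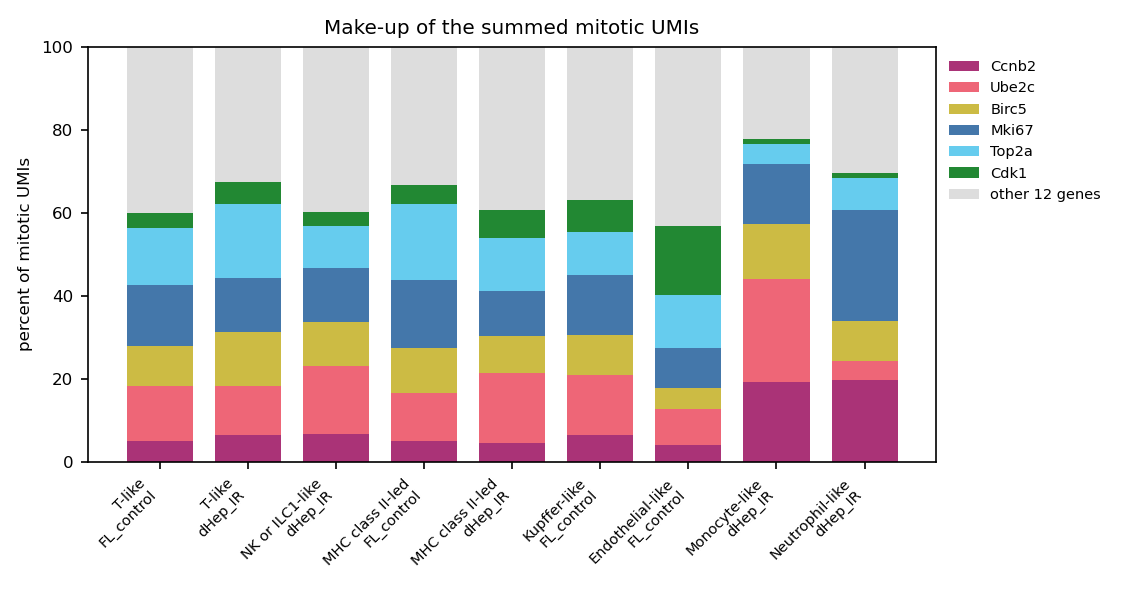
Percent of the summed mitotic UMIs given by Ccnb2, Ube2c, Birc5, Mki67, Top2a, Cdk1 and the other mitotic genes, for pairs of class and library. Each bar is 1 library and sums to 100. Ccnb2, Ube2c and Birc5 give 57.2% in monocyte-like cells of dHep_IR, 31.3% in T-like cells of that library and 30.5% in Kupffer-like cells of FL_control. These genes were not grouped beforehand and have high counts in those monocyte-like cells.

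Some of the neutrophil markers moved with these values, chiefly S100a8 and S100a9. In the 163 cells the 11 neutrophil markers summed to 53945 CPM, against 20072 in the rest of the class, and S100a8 and S100a9 gave nearly all of it. The defining neutrophil genes Camp (5.91 and 8.09 CPM), Ltf (5.22 and 7.53 CPM) and Ly6g (3.48 and 1.6 CPM) were near 0 in both. Ly6c2, a marker of classical monocytes, stood at 1288 and 549 CPM, and the 9 monocyte markers summed to 19923 and 20217. Elane, an elastase of early granulocytes, had a UMI in 25.2% and 3.98% of these cells and in 0 cells of the class in FL_control and FL_IR. It belongs to the 4 neutrophil precursor markers, which were not absent from FL_IR. These summed to 518 and 230 CPM in the 163 cells and the rest. The matching values were 434 and 389 in FL_IR and 52.7 and 30.8 in FL_control. Over the class, neutrophil markers summed to 282, 8606 and 27285 CPM. Their part in the mitotic values was not tested.

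Depth differed between the libraries, so shares of cells with at least 2 mitotic genes were also taken after thinning each cell to 1000 UMIs. In monocyte-like cells the thinned shares were 0.775% (0.0196% to 4.24%), 0.216% (0.00546% to 1.2%) and 1.46% (0.781% to 2.49%), with 4, 1 and 3 shallower cells left out, and the intervals overlap. Thinned to 2000 UMIs, the shares were 0.807% (0.0204% to 4.41%), 0% (0% to 0.797%) and 3.16% (2.11% to 4.54%), and the intervals of FL_IR and dHep_IR did not overlap. Unthinned they were 2.26%, 4.09% and 18.3%. In neutrophil-like cells, which do not divide once mature, the unthinned share was 0.213% in FL_IR and 1.68% in dHep_IR, and the thinned share 0.0426% (0.00108% to 0.237%) and 0.0542% (0.00137% to 0.302%), with 0 and 4 cells left out. Endothelial-like cells had a thinned share of 0.527% (0.281% to 0.899%) in FL_control and 0 in both irradiated libraries, which, as 3 cells of the total, allows up to 0.104% and 0.0897% (upper Clopper-Pearson bounds of 0.127% and 0.110%). Their unthinned shares were 2.01%, 0.332% and 0.376%.

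FL_IR against FL_control could be compared for only 15 members in monocyte-like cells, since FL_control held 89 mitotic UMIs, 77.5% of them in 5 cells. Of these members 8 were lower (background 11.9%) and 0 higher (6.08%). They were the S-phase genes Mcm3, Mcm5, Mcm7 and Rrm1, the mitotic genes Top2a and Aurkb, Ccnd1 and Stmn1. The mitotic sum was 2.94-fold lower (2.22 to 3.88). Its log2 ratio, -1.56, turned to 0.33 without the 5 richest cells of each library, and was -2.66 with doublets kept and -2.32 as a mean over cells. In FL_control 61 of the 89 mitotic UMIs lay in the 3 cells with at least 2 mitotic genes. Those cells had T markers at 1581 CPM against 85.7 in the rest and NK or ILC1 markers at 764 against 5.82. Monocyte markers stood at 6220 against 11716 CPM, and the part of these markers was not tested.

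Neutrophil-like cells (452, 2346 and 1848 cells) held few mitotic UMIs, 10, 162 and 335. The sum was 2.07-fold higher (1.71 to 2.52) in dHep_IR than in FL_IR, with 3 of 17 members higher (background 3.84%) and 0 lower (2.94%). The higher members were Ccnb2 (1, 7 and 66 UMIs), Birc5 (1, 3 and 33 UMIs) and Mcm5 (0, 9 and 22 UMIs), while Cdk1 had 1, 0 and 4. Aurka had the most UMIs of the mitotic genes in FL_IR, with 1, 64 and 46. In the 31 cells of dHep_IR with at least 2 mitotic genes, Camp, a granule gene of maturing neutrophils, stood at 11102 CPM against 4874 in the rest, and Retnlg at 5702 against 19731. The part of these markers was not tested.

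Between FL_IR and FL_control, neutrophil-like cells had 2 of 8 members lower, a share near the background of 25.7%, and 0 higher (6.64%). With TMM factors the split was 1 lower and 2 higher. Pcna stood at 80.7, 12.8 and 12.8 CPM and was 6.29-fold lower (5.09 to 7.74), and Mcm4 stood at 9.38, 4.58 and 3.2. The mitotic sums had a ratio of 1.03 (0.547 to 2.19). This value changed with the setting, since the log2 ratio was -4.22 with a stricter filter on cells and -4.20 with finer clusters. With TMM factors it was 0.70.

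T-like cells (581, 110 and 206 cells) had a higher mitotic sum than endothelial-like, Kupffer-like, monocyte-like and neutrophil-like cells in all 3 libraries. NK or ILC1-like cells of dHep_IR stood higher, at 962.5 CPM against 701 in T-like cells. The MHC class II-led cluster stood higher than T-like cells in FL_control, at 713 against 514 CPM, and lower in dHep_IR, at 539.5. The mitotic sum of T-like cells was 1.4-fold lower (1.23 to 1.6) in FL_IR than in FL_control. In dHep_IR it was 1.91-fold higher (1.67 to 2.2) than in FL_IR. In FL_IR 91.6% of 262 mitotic UMIs came from 5 cells, and without the 5 richest cells of each library the log2 ratios were -3.02 and 3.23, in place of -0.48 and 0.93. Thinned shares of cells with at least 2 mitotic genes were 3.65% (2.27% to 5.52%), 0.909% (0.0230% to 4.96%) and 5.42% (2.74% to 9.49%), with 5, 0 and 3 cells left out, and the intervals overlap. Unthinned they were 6.2%, 6.36% and 14.6%, at medians of 6300, 5878 and 6035 UMIs.

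Against FL_IR, 13 of 30 members were higher in T-like cells of dHep_IR (background 2.87%) and 0 lower (2.72%). They included 7 of 11 S-phase genes, and the S-phase sum was 2.07-fold higher (1.78 to 2.42). Rrm2 had 60, 0 and 44 UMIs and was at least 6.87-fold higher. Tyms, the thymidylate synthase, had 70, 10 and 63 UMIs and Top2a 283, 27 and 192. In the 30 T-like cells of dHep_IR with at least 2 mitotic genes the 9 NK or ILC1 markers summed to 1814 CPM against 151 in the rest, and the 9 T markers to 4168 against 3285. In FL_IR the NK or ILC1 markers stood at 485 and 238 CPM. The part of these markers was not tested. Cenpf had the lowest ratio of the members compared, with 35, 51.8 and 30.8 CPM, 1.68-fold lower (1.06 to 2.64) in dHep_IR. Of the listed replication genes outside the set, 14 of 27 compared were higher and 0 lower, among them Uhrf1 (38, 1 and 53 UMIs), which keeps DNA methylation through replication, and Tk1 (36, 1 and 36 UMIs), a thymidine kinase. Between FL_IR and FL_control, 5 of 33 members were lower (background 4.8%), namely Mcm5, Rrm2, Plk1, Kif11 and Stmn1, and 0 higher (3.4%).

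**Figure D4:**
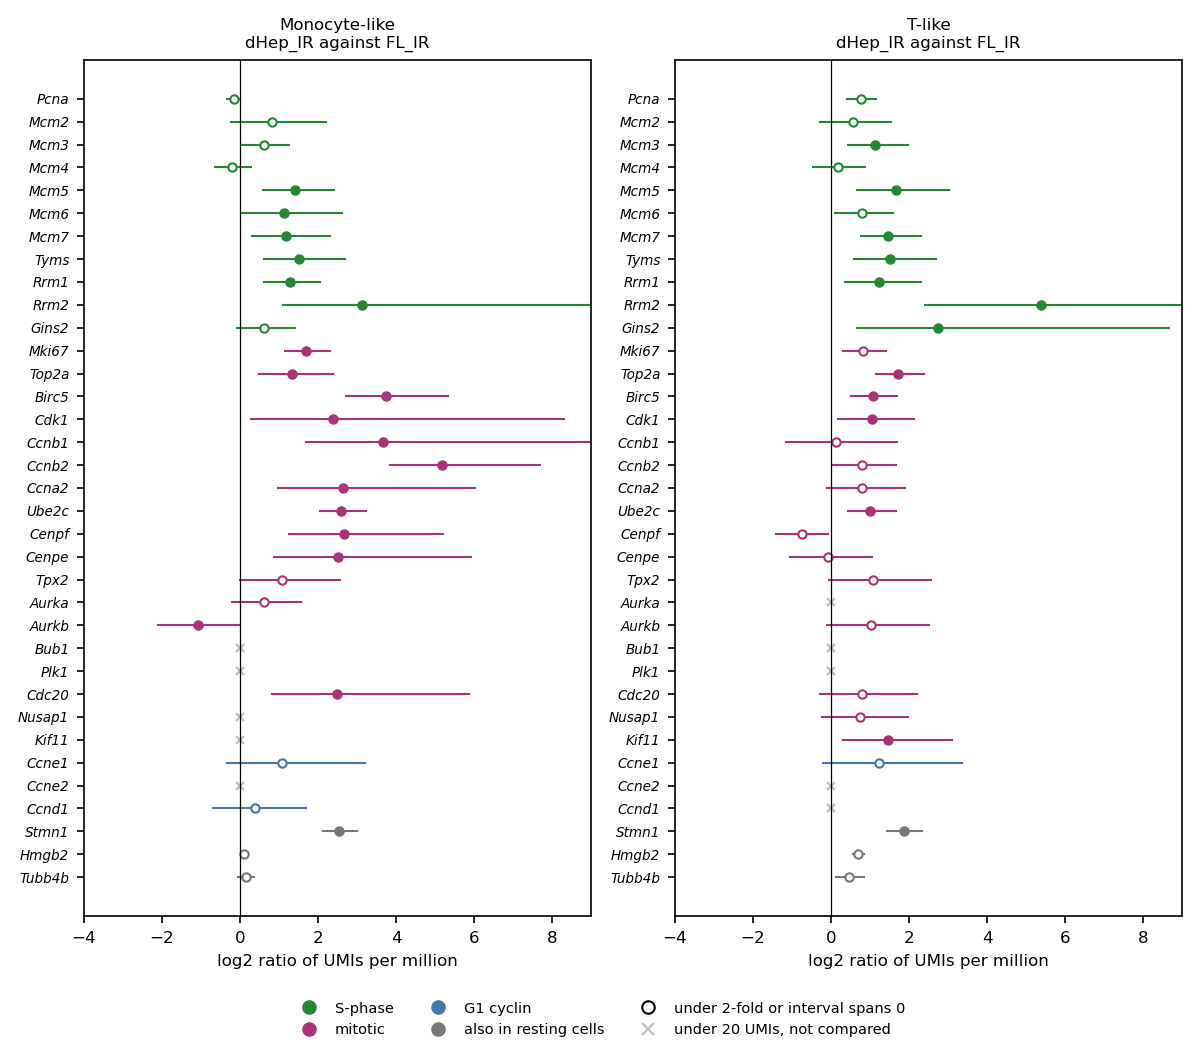
Log2 ratio of CPM between dHep_IR and FL_IR for each of the 35 genes in monocyte-like (left) and T-like cells (right), with 95% intervals. Filled points are called, open points are under 2-fold or have an interval that spans 0, crosses have under 20 UMIs, and points of genes with 0 UMIs in a library depend on the added count of 0.5. Higher genes number 18 of 30 in monocyte-like and 13 of 30 in T-like cells.

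NK or ILC1-like cells, innate lymphocytes, were compared only between dHep_IR (78 cells) and FL_control (220 cells), since FL_IR gave 32 cells, with 0 mitotic UMIs. The mitotic sum was 2.83-fold higher (2.47 to 3.23) in dHep_IR. Of the members 10 of 29 were higher (background 3.43%), all mitotic, and 4 lower (10.9%), all S-phase genes (Mcm5, Mcm6, Mcm7, Rrm1). Over the 29 members the share that was lower is near its background. Ccnb1, a B-type cyclin, had 6 and 17 UMIs in FL_control and dHep_IR, Cdc20, an activator of the anaphase-promoting complex, 11 and 22, and Mcm6 104 and 14. In dHep_IR 4 cells held 458 of 466 mitotic UMIs. Those cells had endothelial markers at 977 CPM against 89.7 in the rest, cholangiocyte markers at 458 against 15 and NK or ILC1 markers at 8488 against 13546, and the part of these markers was not tested. Without the 5 richest cells of each library the log2 ratio turned to -2.27, in place of 1.5, and it was 0.73 as a mean over cells.

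The MHC class II-led cluster (117, 14 and 283 cells) had a mitotic sum of 713 and 539.5 CPM in FL_control and dHep_IR, 1.32-fold lower (1.23 to 1.42) in dHep_IR. Of the members 1 of 34 was higher (background 7.38%) and 4 were lower, a share near the background of 10.8%. With TMM factors 1 was higher and 2 were lower. Ccnb1 stood at 8.78 and 19 CPM and was the higher one, and Mki67 (117 and 58.3 CPM), Mcm5 (39.5 and 17.9), Bub1 (10.7 and 4.52) and Ccnd1 (224 and 35) were lower. The 5 richest cells held 68% and 47.6% of the mitotic UMIs, and without them the log2 ratio turned to 0.22, in place of -0.40. The 9 monocyte markers summed to 1952 and 4485 CPM and the 8 dendritic cell markers to 837 and 212, and their part was not tested.

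The G1 cyclin Ccnd1, which couples growth signals to Cdk4 and Cdk6, stood at 565, 46.2 and 71.9 CPM in endothelial-like cells (12340, 834 and 1454 UMIs). It was 12.2-fold lower (11.4 to 13.1) in FL_IR than in FL_control and 1.56-fold higher (1.43 to 1.7) in dHep_IR than in FL_IR, the latter under the 2-fold rule. The difference from FL_control was seen in every cluster of the class, with 549.7 and 579.8 CPM in the clusters of FL_control and 11.6 to 75.7 in those of the irradiated libraries. In Kupffer-like cells Ccnd1 stood at 139.9, 128 and 111 CPM and was not called, although the mitotic genes of that class were lower. Ccne1 and Ccne2, which act with Cdk2 at the start of S phase, had 16, 6 and 4 and 49, 15 and 21 UMIs in endothelial-like cells, and Ccne2 was lower in FL_IR.

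Of the 21 listed drivers of the cycle compared in endothelial-like cells of FL_IR against FL_control, 7 were lower (background 16.7%) and 3 higher (8.96%). E2f1, a transcription factor of S-phase genes, had 133, 5 and 5 UMIs, and Ccnd2, another D-type cyclin, stood at 592, 131 and 88.5 CPM. Myc was one of the higher genes, at 18.3, 107 and 131 CPM. Of the 18 listed brakes, 2 were higher and 3 lower, both shares near that background. The higher ones were Cdkn1a, at 169.7, 1714 and 1547 CPM and 10.1-fold higher (9.76 to 10.5), and Ccng1, another p53 target, at 36.1, 205 and 232. Cdkn1a stood at 27, 786 and 645 CPM in Kupffer-like and 16.2, 105 and 97.7 in T-like cells, higher in both irradiated libraries. Its levels were 318, 332 and 359.5 CPM in monocyte-like cells, which hardly differ, and 60, 22.6 and 41.5 in neutrophil-like cells, lowest in FL_IR.

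**Figure D5:**
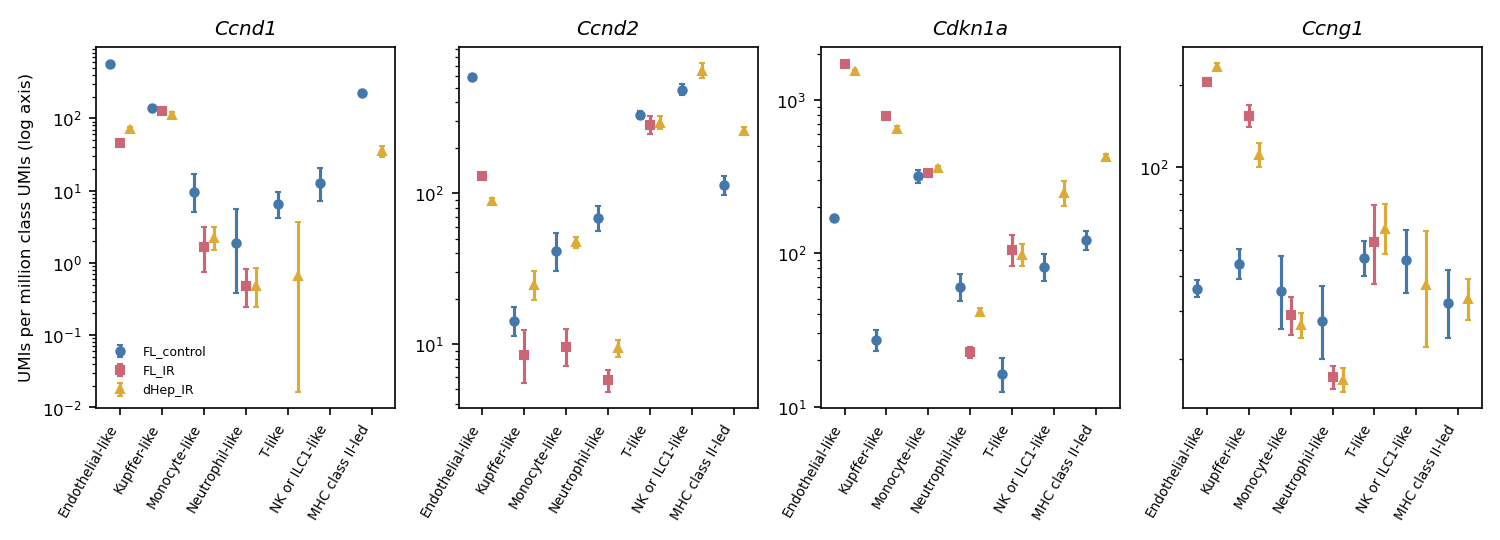
CPM of the class total (log axes that differ between panels) of Ccnd1, Ccnd2, Cdkn1a and Ccng1 by class, with 95% Poisson intervals, for classes with at least 50 cells in a library. Circles are FL_control, squares FL_IR and triangles dHep_IR, each 1 library. Endothelial-like cells show Ccnd1 at 565, 46.2 and 71.9 and Cdkn1a at 169.7, 1714 and 1547.

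The 3 genes that resting cells also transcribe did not move as 1 group. Over 25 pairs of library and class, the log2 level of Stmn1 had a Pearson r of 0.91 with the mitotic sum, and in monocyte-like cells Stmn1 had 57, 49 and 713 UMIs. Hmgb2, a chromatin protein, had an r of 0.28 and stood at 1623, 1539.6 and 1186 CPM in neutrophil-like cells, which held few mitotic UMIs. Tubb4b, a tubulin, had an r of 0.04 and stood at 219, 364 and 309 CPM in endothelial-like cells, higher where mitotic genes were lower. Among mitotic genes r ran from 0.70 for Aurka to 0.98 for Birc5, among S-phase genes from 0.45 for Gins2 to 0.76 for Mcm5, and for Ccnd1 it was -0.09. The pairs share libraries and depth, and each mitotic gene is part of the sum, so these values are a description.

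Outside the set, the 10 genes with a level most like the mitotic sum over these pairs were Cdca8 (r of 0.99), Pclaf, Ncapg, Cdca3, Diaph3, Ska1, Hmmr, Foxm1, H1f5 and Sgo1 (0.92). Cdca8, a subunit of the passenger complex, had 70, 0 and 7 UMIs in Kupffer-like and 4, 6 and 137 in monocyte-like cells. Of the listed mitosis genes outside the set, 33 of 43 were lower (background 16.7%) and 1 higher (8.96%) in endothelial-like cells of FL_IR against FL_control. In Kupffer-like cells 28 of 37 were lower (8.66%) and 0 higher (6.12%). In monocyte-like cells 13 of 26 were higher (background 4.66%) and 1 lower (3.2%) in dHep_IR against FL_IR. The higher ones include Spc24, a kinetochore subunit, with 2, 2 and 122 UMIs and Cdca3 with 7, 8 and 261.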

How the data were processed

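Livers of 3 groups were measured by 10x 3' single-cell RNA sequencing, with 1 library per group and 52858425, 59228905 and 78694038 UMIs in all barcodes of FL_control, FL_IR and dHep_IR. The deposited matrices hold raw UMI counts per gene and barcode. Cell Ranger 6.1.1, CASAVA 1.8, Seurat 4.0.3 and the mm10 build are named per the submitters' processing notes, without their role, and for the annotation release the sources used here give nothing. Barcodes with at least 500 UMIs, 250 genes and at most 25% mitochondrial UMIs were kept, and Scrublet (expected rate 6%, scanpy 1.11.5) removed 167, 241 and 310 doublets. Cells were clustered without the cell cycle lists (2000 variable genes, 30 components, 15 neighbours, Leiden resolution 1, igraph 0.11.9), and clusters were named from marker lists, with the scoring details set after the clusters were seen. The names are rebuilt from the data and may differ from those of the study.

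Counts were summed per library and class with at least 50 cells and divided by the class total. Ratios have exact conditional intervals, levels Poisson intervals and shares Clopper-Pearson intervals (scipy 1.17.1), all at 95% and for counting error only. Log2 ratios add 0.5 to each count, and a fold against 0 UMIs uses a floor of 3 UMIs for the library. Genes needed at least 20 UMIs over both libraries. TMM factors came from edgeR 4.0.16 and were an alternative only, since a test needs replicates. The rule for calling genes was tried on simulated independent Poisson counts, the model that its intervals assume. Those counts hold no clumping of UMIs in a few cells, and clustering, naming and thinning were not tried in this way. The text names all 35 members, up to 4 called genes with the largest log2 ratio per further list (other replication genes, other mitosis genes, drivers, brakes), class and comparison, and the 10 genes most like the mitotic sum. The members and lists were chosen with earlier results of these data known. Alternatives covered doublets, cell filters, clustering, scaling, the minimum of UMIs, the fold, thinning and single members.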

Additional observations from a re-analysis of the deposited data

Results flagged for a closer look

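Between dHep_IR and FL_control the summed genes went in opposite directions in different cell classes, each class being 1 library against 1. The log2 ratio of the mitotic sum was above 0 in 4 classes, with 0.76 in monocyte-like cells, 1.5 in NK or ILC1-like cells, 1.03 in neutrophil-like cells and 0.45 in T-like cells. It was below 0 in 3 others, with -2.63 in endothelial-like cells, -2.05 in Kupffer-like cells and -0.40 in the MHC class II-led cluster. These are sums over the genes and say nothing of each gene.

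For the S-phase sum the only class above 0 of those compared was T-like cells, with 0.45. The values below 0 were -0.36 in endothelial-like cells, -0.39 in Kupffer-like cells, -0.29 in the MHC class II-led cluster, -0.78 in monocyte-like cells, -0.76 in NK or ILC1-like cells and -2.23 in neutrophil-like cells. In monocyte-like, neutrophil-like and NK or ILC1-like cells the mitotic sum was higher and the S-phase sum lower. The differences between classes were not tested. The signs of the mitotic sum in monocyte-like, neutrophil-like, NK or ILC1-like cells and the MHC class II-led cluster, and that of the S-phase sum in the MHC class II-led cluster, each changed under at least 1 alternative setting.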

How the results depend on the processing

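No paired analysis was possible because each group holds 1 library, and for the same reason no replicate could be left out. Values with no test were compared with their own 95% counting interval: under the alternatives 102 values of the mitotic sum and 107 of the S-phase sum stayed inside it, 27 and 27 left it, and 6 and 1 changed sign where the interval excludes 0. Where it spans 0, a further 6 values of the mitotic sum and 7 of the S-phase sum differ in sign and are counted above as inside or outside the interval. With TMM factors these are 0.70 for the mitotic sum of neutrophil-like cells (FL_IR against FL_control) and, for the S-phase sum (dHep_IR against FL_IR), 0.044 in neutrophil-like and 0.067 in endothelial-like cells. Of single members, 1758 values stayed inside, 37 left it and 1 changed sign where called. Of the counts of called members 155 stayed within 1.5 times and 35 did not, and of the shares 106 stayed inside their interval and 25 did not. The setting without the 5 richest cells was chosen after seeing the data. At these depths genes under 20 UMIs could not be compared, and FL_control held 10 mitotic UMIs in neutrophil-like cells. With doublets kept the MHC class II-led cells joined the monocyte-like class. With the stricter filter or the finer clusters the classes were drawn anew, and the cells of the neutrophil-like class of FL_control were not compared between settings. The cause of the changes under the alternatives was not tested.

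With TMM factors, the log2 ratio of the mitotic sum was, for dHep_IR against FL_control, -0.25 in the MHC class II-led cluster. For the S-phase sum the log2 ratio was, for FL_IR against FL_control, -0.25 in endothelial-like cells and -1.46 in neutrophil-like cells, and, for dHep_IR against FL_IR, 0.067 in endothelial-like cells, and, for dHep_IR against FL_control, -0.18 in endothelial-like cells, -0.23 in Kupffer-like cells, -0.13 in the MHC class II-led cluster, -0.50 in monocyte-like cells and -1.41 in neutrophil-like cells. The number of members called was 2 lower in the MHC class II-led cluster (dHep_IR against FL_control), 0 lower in monocyte-like cells (dHep_IR against FL_IR), 2 higher in neutrophil-like cells (FL_IR against FL_control) and 1 lower in neutrophil-like cells (FL_IR against FL_control). With doublets kept, the log2 ratio of the mitotic sum was, for FL_IR against FL_control, -2.66 in monocyte-like cells, and, for dHep_IR against FL_IR, 1.63 in monocyte-like cells, and, for dHep_IR against FL_control, -1.03 in monocyte-like cells and 1.27 in NK or ILC1-like cells. For the S-phase sum the log2 ratio was, for FL_IR against FL_control, -1.34 in monocyte-like cells and -1.71 in neutrophil-like cells, and, for dHep_IR against FL_IR, 0.48 in monocyte-like cells, and, for dHep_IR against FL_control, -1.76 in neutrophil-like cells. The number of members called was 1 lower in endothelial-like cells (dHep_IR against FL_IR), 5 higher in Kupffer-like cells (dHep_IR against FL_IR), 24 lower in monocyte-like cells (FL_IR against FL_control), 0 lower in monocyte-like cells (dHep_IR against FL_IR) and 1 lower in neutrophil-like cells (FL_IR against FL_control). The share of cells with mitotic members was 0% in neutrophil-like cells of FL_IR. The log2 ratio of Aurkb in monocyte-like cells (dHep_IR against FL_IR) was 0.34. With the stricter filter on cells, the log2 ratio of the mitotic sum was, for FL_IR against FL_control, -4.22 in neutrophil-like cells, and, for dHep_IR against FL_control, -3.18 in neutrophil-like cells. The number of members called was 9 lower in neutrophil-like cells (FL_IR against FL_control). The share of cells with mitotic members was 0% in monocyte-like cells of FL_control and 0% in neutrophil-like cells of FL_IR. With cell cycle genes used in the clustering, the share of cells with mitotic members was 0% in neutrophil-like cells of FL_IR. At a clustering resolution of 2, the log2 ratio of the mitotic sum was, for FL_IR against FL_control, -4.20 in neutrophil-like cells, and, for dHep_IR against FL_control, -3.12 in neutrophil-like cells. The number of members called was 9 lower in neutrophil-like cells (FL_IR against FL_control). With CPM averaged over cells, the log2 ratio of the mitotic sum was, for FL_IR against FL_control, -1.94 in endothelial-like cells, -3.45 in Kupffer-like cells, -2.32 in monocyte-like cells and -0.71 in T-like cells, and, for dHep_IR against FL_IR, 1.27 in T-like cells, and, for dHep_IR against FL_control, -1.92 in endothelial-like cells, 0.087 in monocyte-like cells and 0.73 in NK or ILC1-like cells. For the S-phase sum the log2 ratio was, for FL_IR against FL_control, -0.25 in endothelial-like cells and -0.64 in Kupffer-like cells, and, for dHep_IR against FL_IR, 0.58 in T-like cells, and, for dHep_IR against FL_control, -0.27 in endothelial-like cells, -0.58 in Kupffer-like cells and 0.15 in T-like cells. Without the 5 cells with the most mitotic UMIs per library, the log2 ratio of the mitotic sum was, for FL_IR against FL_control, -1.63 in endothelial-like cells, -3.40 in Kupffer-like cells, 0.33 in monocyte-like cells and -3.02 in T-like cells, and, for dHep_IR against FL_IR, 0.82 in Kupffer-like cells and 3.23 in T-like cells, and, for dHep_IR against FL_control, -1.61 in endothelial-like cells, -2.59 in Kupffer-like cells, 0.22 in the MHC class II-led cluster, 2.51 in monocyte-like cells, -2.27 in NK or ILC1-like cells and 0.21 in T-like cells. For the S-phase sum the log2 ratio was, for FL_IR against FL_control, -0.68 in monocyte-like cells, and, for dHep_IR against FL_control, 0.11 in the MHC class II-led cluster, -0.49 in monocyte-like cells and 0.26 in T-like cells. Without the member with the most UMIs, the log2 ratio of the mitotic sum was, for FL_IR against FL_control, -4.47 in Kupffer-like cells, and, for dHep_IR against FL_control, -2.83 in endothelial-like cells, -2.38 in Kupffer-like cells and 1.70 in NK or ILC1-like cells. For the S-phase sum the log2 ratio was, for FL_IR against FL_control, -0.69 in Kupffer-like cells, -1.53 in monocyte-like cells and -0.84 in neutrophil-like cells, and, for dHep_IR against FL_IR, 0.80 in monocyte-like cells, and, for dHep_IR against FL_control, -0.43 in endothelial-like cells and -0.97 in neutrophil-like cells. At a minimum of 100 UMIs, the number of members called was 11 lower in endothelial-like cells (FL_IR against FL_control), 8 lower in Kupffer-like cells (FL_IR against FL_control), 0 higher in Kupffer-like cells (dHep_IR against FL_IR), 0 higher in the MHC class II-led cluster (dHep_IR against FL_control), 1 lower in monocyte-like cells (FL_IR against FL_control), 7 higher in monocyte-like cells (dHep_IR against FL_IR), 0 lower in monocyte-like cells (dHep_IR against FL_IR), 2 higher in NK or ILC1-like cells (dHep_IR against FL_control), 1 lower in NK or ILC1-like cells (dHep_IR against FL_control), 0 higher in neutrophil-like cells (dHep_IR against FL_IR), 2 lower in T-like cells (FL_IR against FL_control) and 6 higher in T-like cells (dHep_IR against FL_IR). With no minimum of UMIs, the number of members called was 6 higher in Kupffer-like cells (dHep_IR against FL_IR), 16 lower in monocyte-like cells (FL_IR against FL_control) and 5 higher in neutrophil-like cells (dHep_IR against FL_IR). At a fold of at least 1.5, the number of members called was 1 higher in endothelial-like cells (FL_IR against FL_control), 1 higher in endothelial-like cells (dHep_IR against FL_IR), 1 higher in Kupffer-like cells (FL_IR against FL_control), 5 higher in Kupffer-like cells (dHep_IR against FL_IR), 11 lower in the MHC class II-led cluster (dHep_IR against FL_control), 1 higher in neutrophil-like cells (FL_IR against FL_control), 5 higher in neutrophil-like cells (dHep_IR against FL_IR), 13 lower in T-like cells (FL_IR against FL_control) and 1 lower in T-like cells (dHep_IR against FL_IR). For cells with at least 3 different mitotic members, the share of cells with mitotic members was 1.87% in Kupffer-like cells of FL_control, 0% in monocyte-like cells of FL_IR, 0% in neutrophil-like cells of FL_IR and 0% in neutrophil-like cells of dHep_IR. After thinning to 2000 UMIs, the share of cells with mitotic members was 5.33% in Kupffer-like cells of FL_control, 0% in monocyte-like cells of FL_IR and 3.16% in monocyte-like cells of dHep_IR. With no thinning, the share of cells with mitotic members was 2.01% in endothelial-like cells of FL_control, 0.332% in endothelial-like cells of FL_IR, 0.376% in endothelial-like cells of dHep_IR, 8.16% in Kupffer-like cells of FL_control, 3.33% in Kupffer-like cells of dHep_IR, 18% in the MHC class II-led cluster of FL_control, 11.7% in the MHC class II-led cluster of dHep_IR, 4.09% in monocyte-like cells of FL_IR, 18.3% in monocyte-like cells of dHep_IR, 6.36% in NK or ILC1-like cells of FL_control, 1.68% in neutrophil-like cells of dHep_IR, 6.2% in T-like cells of FL_control, 6.36% in T-like cells of FL_IR and 14.6% in T-like cells of dHep_IR.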
